A study of Canis lupus familiaris with 21 samples.

Results

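The stress-type immediate early genes described here are JUN, JUNB, ATF3, KLF2, KLF4, DUSP1, GADD45B, BTG2, IER2 and IER3, chosen by symbol as 10 of the 34981 genes measured in companion dogs. The study read the RNA of prefrontal cortex and of extracellular vesicles from blood plasma (EVs, small membrane-bound particles that cells release). Cortex gave 3 libraries from dogs with canine cognitive dysfunction (CCD, a dementia-like decline seen in aged dogs), 3 from old dogs and 3 from young dogs. EVs gave 4 libraries from CCD dogs, 4 from old dogs and 4 from young dogs. The labels state the condition of the dogs and not their breed, sex, age in years or any treatment. A library is named by its group and the number in its label. Whether every number marks its own animal is not stated. The p-values set a difference between group means against the spread between libraries, which may in part be technical. All 10 genes passed the filter on low values in both tissues, a mean normalised count of at least 10. So did 19010 of all genes in cortex and 31728 in EVs. The fewest reads behind any value were 30 in cortex (ATF3 in CCD cortex_163) and 55 in EVs.

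Immediate early genes are switched on within minutes of a signal, without new protein synthesis, by factors that already sit on their promoters. Those considered here answer to stress, growth factors, blood flow and inflammation in most cell types, through the JNK, p38 and ERK kinases, and many of their products shut the same pathways down again. In brain they are transcribed in glia, vessels and neurons alike, and they are also known to be induced by the handling of tissue.

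Cortex libraries held 14.9 to 18.9 M reads in CCD, 24.2 to 27.5 M in old and 22.3 to 31.4 M in young dogs, of which 92.1% to 95.8% fell on genes. The neuronal gene SNAP25 had 49212 to 107624 normalised counts and the astrocyte gene GFAP 31181 to 58301 over the 9 libraries. Markers of fibroblasts and meninges set 3 of them apart. The sum of the 14 markers was 26022, 33647 and 187780 normalised counts in CCD, 14817 to 31703 in old and 14117, 122243 and 338065 in young cortex, where CCD cortex_358, young cortex_377 and young cortex_353 are the high ones, and no marker of the list was at 0 in every library of a group. The collagen gene COL1A1 had 1781 normalised counts in CCD cortex_358, 2876 in young cortex_377 and 7432 in young cortex_353, against 24.8 to 118 in the other 6. The sum of the endothelial markers was also highest in CCD cortex_358 (16030) and young cortex_353 (16261). Separately, CCD cortex_354 had the highest sum of oligodendrocyte markers (677650), and young cortex_270 had the highest sum of microglial markers (17366).

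AP-1 is a dimeric transcription factor, JUN is its central subunit, JUNB a related subunit that often acts against JUN, and ATF3 a stress-induced partner that commonly represses. JUN had 1559, 1992 and 1629 normalised counts in CCD cortex_163, cortex_354 and cortex_358, 1756, 2837 and 1949 in old cortex_250, cortex_253 and cortex_264, and 4340.0, 2431 and 2065 in young cortex_270, cortex_353 and cortex_377. Every CCD library lay below every young library for JUN, while CCD and old overlapped. JUNB had 3619, 1087 and 2204 normalised counts in CCD, 2059, 1103 and 1476 in old and 5579.9, 3278 and 2275 in young cortex, libraries in the same order. All 3 young libraries lay above all 3 old ones, and CCD cortex_163 lay among the young. ATF3 had 37.8, 87.9 and 84.1 normalised counts in CCD, 108, 63.8 and 84.8 in old and 2249, 151 and 80.7 in young cortex. Young cortex_270 alone held 14.9 times as much ATF3 as the next library, and young cortex_377 lay within the range of the CCD and old libraries.

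KLF2 and KLF4 encode Krüppel-like zinc-finger factors. KLF2 is induced by blood flow in endothelium and keeps vessels quiescent, and KLF4 is shared by endothelium, fibroblasts and myeloid cells and is one of the pluripotency factors. For KLF2 the normalised counts were 249, 194 and 1186 in CCD, 388, 262 and 227 in old and 207, 1303 and 493 in young cortex. The high libraries were CCD cortex_358 and young cortex_353, with young cortex_377 behind them, and young cortex_270 was the second lowest of the 9. KLF4 had 107, 80.2 and 531 normalised counts in CCD, 168, 88.5 and 67.7 in old and 409, 652 and 321 in young cortex. Here all 3 young libraries lay above all 3 old ones, and CCD cortex_358 lay among the young.

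Genes that act on stress kinase signalling made up the next group. DUSP1 encodes the phosphatase that inactivates p38 and JNK, and GADD45B a stress sensor that binds the kinase MAP3K4 and is also linked to DNA demethylation in mouse neurons. DUSP1 had 1028, 481 and 2473 normalised counts in CCD, 913, 695 and 1281 in old and 1691, 2179.8 and 1713 in young cortex. Its young libraries all exceeded the old ones, and its CCD libraries spanned both the lowest and the highest value of the tissue. For GADD45B the counts were 265, 274 and 332 in CCD, 161, 239 and 136 in old and 3675, 296 and 159 in young cortex. The CCD libraries lay above the old ones without overlap, within a narrow range, and young cortex_270 held 11.1 times as much as the next library.

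BTG2 encodes an antiproliferative protein that recruits the CCR4-NOT deadenylase to messenger RNA, IER2 a nuclear protein of the early response, and IER3 a regulator of survival and of ERK signalling. BTG2 had 88.2, 64.8 and 137 normalised counts in CCD, 114, 71.4 and 69.4 in old and 552, 218 and 152 in young cortex, so every young library exceeded every library of the other groups. IER2 had 1126, 396 and 752 normalised counts in CCD, 824, 384 and 703 in old and 788, 1332 and 695 in young cortex, with overlap between all groups. IER3 had 437, 220.5 and 588 normalised counts in CCD, 307, 197 and 169.6 in old and 1055, 697 and 235 in young cortex. For IER3 young cortex_377 fell within the range of the old libraries.

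**Figure D1:**
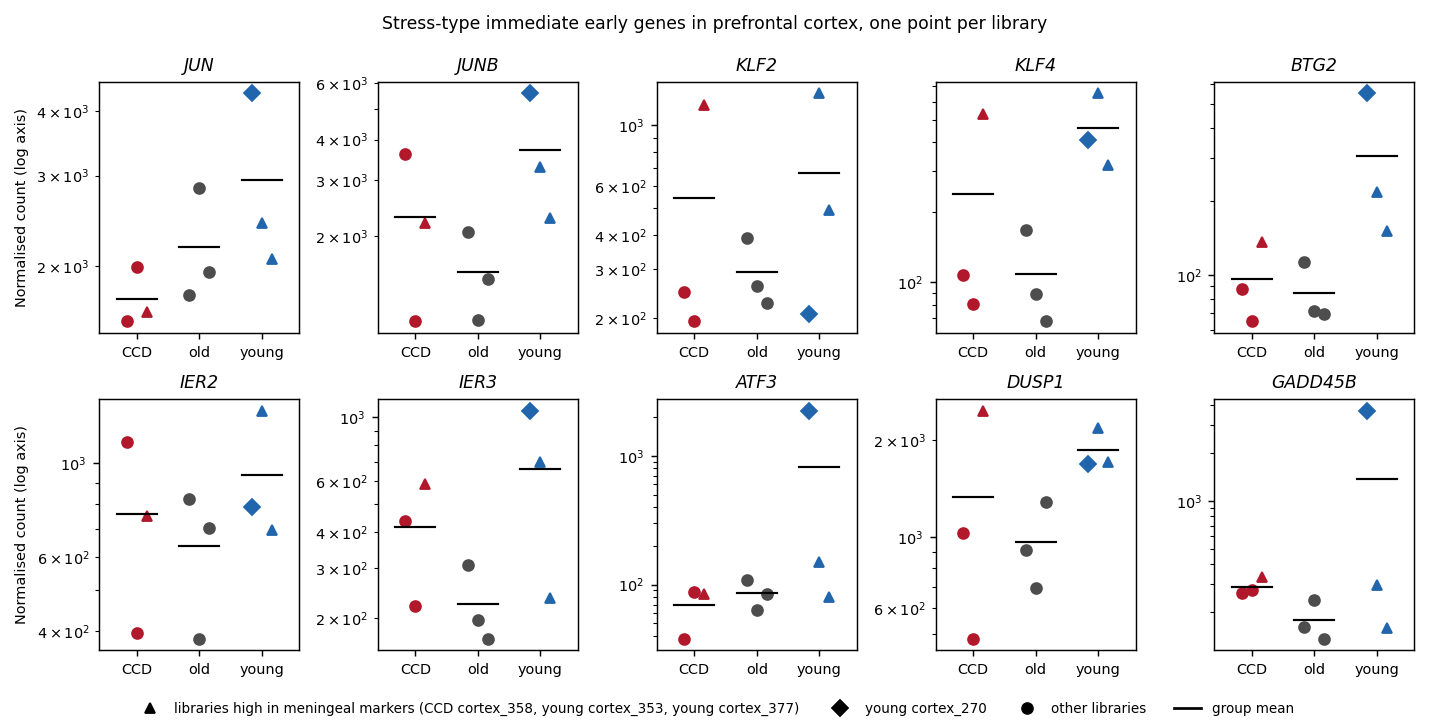
Normalised count of each of the 10 genes (vertical log axis) in the CCD, old and young cortex libraries, 1 point per library, with a line at the group mean. Young cortex_270 (diamond) stands at 2249 for ATF3 and 3675 for GADD45B, far above the other 8 libraries, whereas KLF2 and DUSP1 are high in CCD cortex_358 and young cortex_353 (triangles).

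The order of the group means was young, CCD, old for 8 of the 10 genes, and young, old, CCD for JUN and ATF3. Neighbours in that order mostly overlapped. The coefficient of variation within a group had a median over the 10 genes of 46.3% in CCD, 30.4% in old and 53.8% in young cortex, and it reached 149% for ATF3 in young and 106% for KLF4 in CCD cortex. Between the lowest and the highest cortex library the genes differed by 2.78-fold (JUN) to 59.5-fold (ATF3), with a median of 6.46-fold.

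The genes did not share one pattern over the libraries. In young cortex_270, 6 of them reached their highest level: JUN, JUNB, ATF3, GADD45B, BTG2 and IER3. FOS, the partner of JUN in AP-1, was also highest there, at 6734 normalised counts against 148 to 1218 in the other 8 libraries, and so was the neuronal activity gene EGR1, at 8302 against 1159.5 to 5293. That library had 83.8 normalised counts of COL1A1 and the lowest meningeal sum of the tissue, 14117, together with the highest microglial sum, and the part of microglia in its values was not tested. KLF2, KLF4 and IER2 were instead highest in young cortex_353 and DUSP1 in CCD cortex_358, which are high in the meningeal and endothelial markers, and the part of those cells in the values was not tested. In bulk tissue, fewer cells of a type and less RNA per cell cannot be told apart. Young cortex_353 lay above the median of the 9 libraries for 10 genes, young cortex_270 for 9, young cortex_377 for 6 and CCD cortex_358 for 6. Old cortex_264 did so for 0 genes, old cortex_253 for 1, CCD cortex_354 for 2, and CCD cortex_163 and old cortex_250 for 3 each. CCD cortex_354, with the most oligodendrocyte transcripts, was the lowest library for JUNB, KLF2, BTG2 and DUSP1.

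Pearson's r of the log2 levels over the 9 cortex libraries was positive in 41 of the 45 pairs of these genes and had a median of 0.62. It was highest for ATF3 with GADD45B (0.89), a pair that shares the extreme value of young cortex_270, and lowest for JUN with KLF2 (-0.25). KLF4 correlated with DUSP1 at 0.84 and with KLF2 at 0.78. These values describe 9 libraries that include all 3 groups, and they carry no test.

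**Figure D2:**
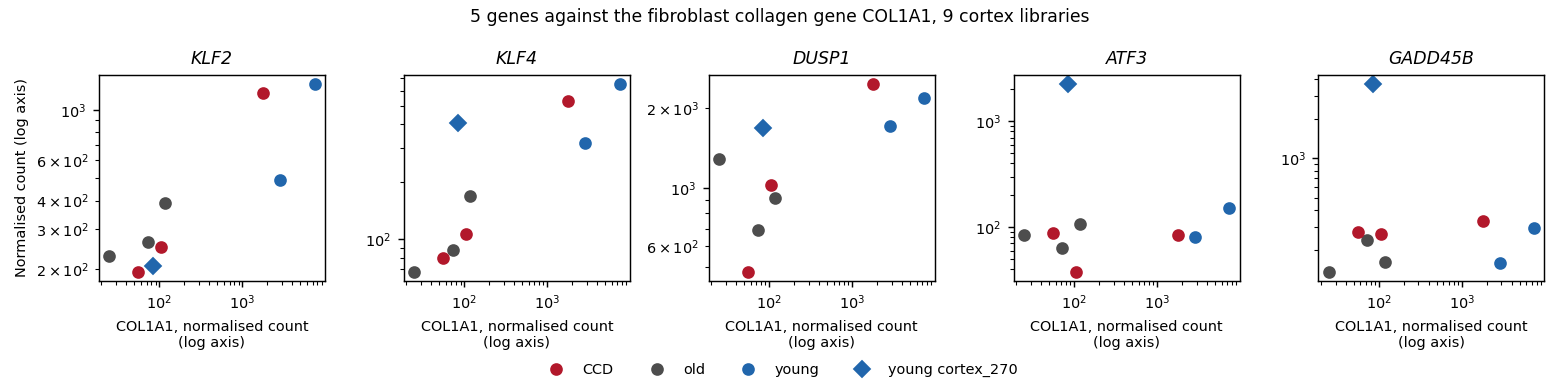
Normalised counts of KLF2, KLF4, DUSP1, ATF3 and GADD45B (vertical log axes) against those of the fibroblast collagen gene COL1A1 (horizontal log axes) in the 9 cortex libraries, coloured by group. The 3 libraries with COL1A1 at 1781 or more hold KLF2 at 493 to 1303, against 194 to 388 elsewhere, whereas ATF3 and GADD45B peak in young cortex_270 (diamond), where COL1A1 is 83.8.

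CCD against old cortex compares dogs with the disease and old dogs, and the ages in years of both groups are not stated. The CCD libraries also held fewer reads, 14.9 to 18.9 M against 24.2 to 27.5 M in old, and the part of depth was not tested. Of the 10 genes 8 had a positive and 2 (JUN and ATF3) a negative log2 fold change, with a median of 0.32 against -0.10 over all 19010 genes tested, and none of them passed. The largest difference was that of IER3, the survival regulator, which averaged 415 ± 185 normalised counts in CCD and 225 ± 72.9 in old cortex (SD, n = 3 each), a log2 fold change of 0.82 ± 0.53 (SE). GADD45B averaged 290.2 ± 36.2 in CCD and 179 ± 53.6 in old cortex, a log2 fold change of 0.73 ± 0.88, with an SE that carries the spread of the young libraries. It was the 1 gene of the 10 whose groups did not overlap, and 11.9% of all genes were likewise separated upwards. KLF4 had a log2 fold change of 0.72 ± 0.64, JUNB 0.46 ± 0.44, KLF2 0.44 ± 0.72, IER2 0.20 ± 0.41, DUSP1 0.20 ± 0.48, BTG2 0.16 ± 0.48, JUN -0.31 ± 0.29 and ATF3 -0.35 ± 0.97. In limma 0 of the 10 genes had an adjusted p under 0.05, the adjusted p-values running between 0.458 and 0.894, beside 0% of all genes. Also 0 had an unadjusted p under 0.05, which 14.8% of all genes had. edgeR called 0 genes with 0 at an unadjusted p under 0.05, and DESeq2 called 0 with 1. Of all 19010 genes 2472 in edgeR and 2980 in DESeq2 had an unadjusted p under 0.05. Limma on the 3 CCD and 3 old libraries alone called 9.35% of all genes and 0 of the 10, with GADD45B the nearest at an adjusted p of 0.101. Without the 3 libraries high in meningeal markers, KLF2 (-0.37), KLF4 (-0.11), DUSP1 (-0.41) and BTG2 (-0.13) had negative log2 fold changes, so that 6 of 10 genes were negative and the positive values of those 4 rested on CCD cortex_358. Without CCD cortex_163 JUNB had 0.049, IER2 -0.15 and ATF3 0.041, and without CCD cortex_354 JUNB had 0.92. Without old cortex_253 JUN had -0.11, IER2 -0.13 and DUSP1 -0.016, with 4 of 10 genes negative, so the sign of DUSP1 rested on that library too. All 14 meningeal markers had a positive log2 fold change in this comparison (median 1.61), as did 13 of 14 microglial markers (median 0.37) and 8 of 14 endothelial markers (median 0.17), while 8 of 10 neuronal markers had a negative one (median -0.84), and their part in the values of the 10 genes was not tested.

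Old against young cortex compares the groups labelled old and young, whose ages in years are not stated. Here all 10 genes were lower on average in the old dogs. Their median log2 fold change was -1.28, against 0.03 over all genes. KLF4 averaged 108 ± 52.9 normalised counts in old and 461 ± 171 in young cortex (SD, n = 3 each), a log2 fold change of -2.13 ± 0.64 (SE). BTG2 averaged 84.8 ± 25.0 in old and 307 ± 215 in young cortex, a log2 fold change of -1.66 ± 0.48. IER3 averaged 225 ± 72.9 in old and 663 ± 411 in young cortex (-1.35 ± 0.53), and JUNB 1546 ± 482 in old and 3711 ± 1694 in young cortex (-1.21 ± 0.44). These 4 genes had an unadjusted p under 0.05, as did 3.89% of all genes in the lower direction. The groups did not overlap for KLF4, BTG2, JUNB and DUSP1, each lower in old, as was so for 5.65% of all genes. DUSP1 had a log2 fold change of -0.99 ± 0.48, ATF3 -1.84 ± 0.97, GADD45B -1.68 ± 0.88, KLF2 -0.84 ± 0.72, IER2 -0.57 ± 0.41 and JUN -0.39 ± 0.29. Markers of other cells differed as well: the log2 fold change was negative for 14 of 14 meningeal (median -2.65), 14 of 14 endothelial (median -0.76) and 13 of 14 microglial markers (median -0.89), and positive for 10 of 10 neuronal (median 0.39) and 8 of 8 oligodendrocyte markers (median 0.88). Their part in the values of the 10 genes was not tested.

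None of the 10 passed in old against young cortex after adjustment in limma, where the adjusted p-values lay between 0.512 and 0.921 and 0% of all genes passed. edgeR on whole reads called 0 of them, with 6 at an unadjusted p under 0.05, beside 1531 of all 19010 genes in either direction. DESeq2 called 1, BTG2, at a log2 fold change of -1.88 and an adjusted p of 0.0241, where it called 0.952% of all genes lower. It gave 7 an unadjusted p under 0.05, beside 1815 of all 19010 genes in either direction. Without young cortex_270 the log2 fold change was -0.40 for ATF3, -0.32 for GADD45B and -0.07 for JUN, while it was -2.18 for KLF4, -1.13 for BTG2, -0.90 for IER3 and -1.49 for KLF2. Without young cortex_353 KLF2 had -0.17, and without old cortex_253 IER2 had -0.24. Without the 3 libraries high in meningeal markers young cortex_270 is the single young library, assumed to vary like the other groups. The log2 fold change was then -4.73 for ATF3, -4.39 for GADD45B, -2.73 for BTG2 and -2.27 for IER3. Each of these genes had its highest cortex value in young cortex_270, so these values describe that library. KLF4 had -2.02 in that fit, and KLF2 turned to 0.46.

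CCD against young cortex uses the same young libraries, so its values are not independent of the preceding ones. All 10 genes were lower on average in CCD, with a median log2 fold change of -0.77 against -0.09 over all genes. ATF3 averaged 69.9 ± 27.9 normalised counts in CCD and 827 ± 1232 in young cortex (SD, n = 3 each), a log2 fold change of -2.19 ± 0.97 (SE). BTG2 averaged 96.5 ± 36.6 in CCD and 307 ± 215 in young cortex (-1.51 ± 0.48), and JUN 1727 ± 232 in CCD and 2945 ± 1222 in young cortex (-0.70 ± 0.29). KLF4 had a log2 fold change of -1.40 ± 0.64, and the means were 239.6 ± 253.1 in CCD and 461 ± 171 in young cortex. These 4 genes had an unadjusted p under 0.05, KLF4 at 0.04999, as did 8.74% of all genes in the lower direction. JUN and BTG2 did not overlap between the groups, as was so downwards for 8.22% of all genes. The remaining log2 fold changes were -0.95 ± 0.88 for GADD45B, -0.79 ± 0.48 for DUSP1, -0.75 ± 0.44 for JUNB, -0.54 ± 0.53 for IER3, -0.40 ± 0.72 for KLF2 and -0.37 ± 0.41 for IER2. In limma 0 of the 10 passed, with adjusted p-values between 0.363 and 0.804 and 0% of all genes passing. edgeR and DESeq2 also called 0, each with 4 at an unadjusted p under 0.05. Of all 19010 genes 2460 in edgeR and 2809 in DESeq2 were at that level, in either direction. Without young cortex_270 ATF3 had -0.75, BTG2 -0.97, JUN -0.38, IER3 -0.08 and GADD45B 0.41. Without CCD cortex_354 KLF4 had -0.88, DUSP1 -0.21, JUNB -0.30 and IER2 0.031, and without young cortex_353 KLF2 had 0.27. Among the markers 13 of 14 meningeal (median -0.996), 11 of 14 endothelial (median -0.48), 12 of 14 microglial (median -0.47) and 7 of 10 neuronal ones (median -0.44) had a negative log2 fold change, and 7 of 8 oligodendrocyte ones a positive one (median 0.96). Their part in the values was not tested. Without the 3 libraries high in meningeal markers young cortex_270 is the single young library. The log2 fold change was then -5.26 for ATF3, -3.76 for GADD45B, -2.85 for BTG2 and -1.30 for JUN. Each of these genes had its highest cortex value in young cortex_270, so these values describe that library.

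**Figure D3:**
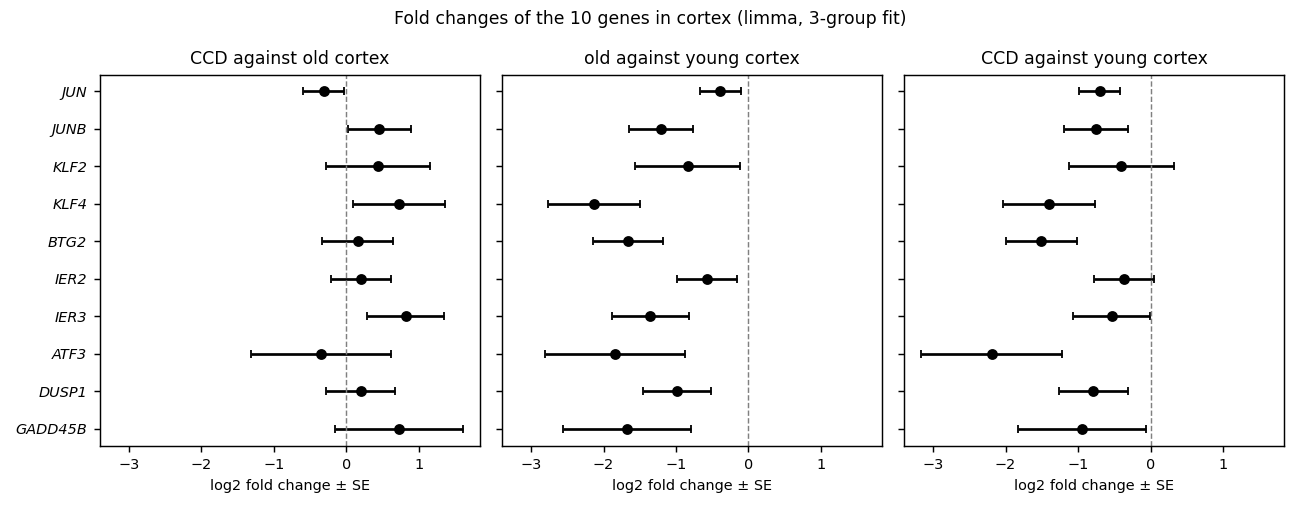
Log2 fold change (horizontal axis, with its SE from limma) of each gene in the 3 cortex comparisons, where a value above 0 means higher in the group named first. In CCD against old cortex the values lie between -0.35 and 0.82 on both sides of 0, and in the comparisons with young cortex all lie below 0, down to -2.13 for KLF4 and -2.19 for ATF3.

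The surrounding pathway was read through 6 lists that hold 106 tested genes in cortex. The lists were chosen with earlier results of these data known, so their shares are descriptions and not a test. In limma over all libraries 0 of the 106 passed in any cortex comparison. At an unadjusted p under 0.05 there were 13 lower and 0 higher genes in CCD against old, which is 12.3% lower beside 10.8% of all genes. There were 22 lower (20.8%, beside 3.89% of all genes) and 2 higher (1.89%, beside 2.85%) in old against young, and 40 lower (37.7%, beside 8.74%) and 0 higher in CCD against young cortex. The lists differed. In old against young 9 of 14 neuronal activity genes, 7 of 28 stress and feedback genes and 2 of 17 kinase genes were lower at that level, and 2 kinase genes were higher. In CCD against young cortex 10, 12 and 2 genes of these lists were lower. edgeR called 0 in each comparison, with 6 lower and 4 higher, 33 lower and 1 higher, and 40 lower and 1 higher genes at an unadjusted p under 0.05. Of all 19010 genes it had 2472, 1531 and 2460 at that level in the same order, in either direction. DESeq2 called 0 in CCD against old, 6 lower genes in old against young (5.66%, beside 0.952% of all genes) and 7 lower genes in CCD against young cortex (6.60%, beside 0.626%). At an unadjusted p under 0.05 it had 7 lower and 4 higher, 35 lower and 2 higher, and 41 lower and 1 higher genes. Of all 19010 genes it had 2980, 1815 and 2809 at that level in the same order, in either direction. Without the 3 libraries high in meningeal markers limma called 14 lower and 2 higher genes in CCD against old (15.1% together, beside 15.4% of all genes), 24 lower in old against young (22.6%, beside 1.38%) and 28 lower in CCD against young cortex (26.4%, beside 2.12%), the last 2 against young cortex_270 alone. The limma fit of CCD and old cortex by themselves called 8 of the 106 lower (7.55%, beside 6.81% of all genes) and 0 higher.

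Upstream of the 10 genes stand the JNK and p38 kinase modules. Of the 17 genes of that list 13 were negative in CCD against old cortex (median log2 fold change -0.39, against -0.10 over all genes), 7 in old against young (median 0.16, against 0.03) and 15 in CCD against young (median -0.33, against -0.09). MAPK10, the neuronal JNK isoform, had the smallest p in CCD against old, with 5613 ± 576 normalised counts in CCD and 8184 ± 287 in old cortex (SD, n = 3 each). Its log2 fold change of -0.55 ± 0.20 did not pass over the 3 groups (limma adjusted p = 0.301). It passed in the limma fit of these groups alone (adjusted p = 0.0310), which called 6.81% of all genes lower. In old against young MAP2K7, a kinase of JNK, had 0.47 ± 0.16, and in CCD against young MAPK14, the p38 alpha kinase, had -1.29 ± 0.48, neither of them passing. Among 13 transcription factors that act on early gene promoters, 11, 8 and 13 were negative in the 3 comparisons in that order, with medians of -0.41, -0.07 and -0.50. MRTFB, a coactivator of SRF, had -0.85 ± 0.33 in CCD against old, ELK3, a partner of SRF, -1.16 ± 0.40 in old against young, and SRF itself -0.71 ± 0.23 in CCD against young cortex.

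Other AP-1 and ATF genes numbered 11, of which 5, 9 and 8 were negative in CCD against old, old against young and CCD against young cortex (medians 0.16, -0.47 and -1.33). FOS averaged 445 ± 330 in old cortex and 2943 ± 3288 in young cortex (6734 in young cortex_270), a log2 fold change of -2.43 ± 0.83 that did not pass. FOSL2, another FOS-family subunit, had -1.53 ± 0.45 in CCD against young, and MAFG, a small MAF protein, -1.33 ± 0.41 in CCD against old cortex. Relatives of the 10 genes by family, 23 of 25 listed being in the table, were negative in 13, 16 and 18 cases (medians -0.24, -0.32 and -0.38). KLF9, a hormone-responsive Krüppel-like factor, had 208 ± 78.7 normalised counts in CCD and 632 ± 109 in old cortex, a log2 fold change of -1.65 ± 0.51. The positive values of KLF2 (0.44 ± 0.72) and KLF4 (0.72 ± 0.64) there turned to -0.37 and -0.11 without CCD cortex_358. KLF10, induced by TGF-beta, had -1.03 ± 0.33 in old against young and -1.28 ± 0.33 in CCD against young cortex.

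Other rapidly induced stress and feedback genes numbered 28, of which 15, 25 and 24 were negative in the 3 comparisons (medians -0.07, -0.56 and -0.70). ZFP36L1, which marks AU-rich messenger RNA for decay, had the smallest p of this list in both comparisons with young cortex. It had 1155 ± 336 normalised counts in CCD, 902 ± 121 in old and 2902 ± 968 in young cortex, log2 fold changes of -1.64 ± 0.28 for old against young and -1.32 ± 0.28 for CCD against young. RHOB, an early-induced small GTPase, had -1.28 ± 0.30 in CCD against old cortex. Of 14 neuronal activity genes 11, 12 and 13 were negative (medians -0.29, -1.07 and -1.18). INHBA, which encodes the activin A subunit and is induced by synaptic activity in rodents, had 199 ± 58.6 normalised counts in CCD, 127 ± 24.7 in old and 600.4 ± 187 in young cortex, log2 fold changes of -2.20 ± 0.33 for old against young and -1.58 ± 0.33 for CCD against young. HOMER1, a postsynaptic scaffold with an activity-induced short form, had -0.75 ± 0.28 in CCD against old cortex. None of these passed in limma over the 3 groups. In the limma fit of CCD and old cortex by themselves, MRTFB (adjusted p = 0.0240), MAFG (0.0451), KLF9 (0.0166), RHOB (0.0297) and HOMER1 (0.0263) passed as MAPK10 did, all lower in CCD. That fit called 7.55% of the 106 list genes lower, beside 6.81% of all genes. It also called 5 of 10 neuronal markers lower, and the part of neurons in these values was not tested.

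Genes were also ranked by how closely their level followed the mean standardised level of the 10 genes over the libraries of a tissue. In cortex the 5 nearest of 12932 genes were CHST7 (Pearson's r = 0.96), PGF (0.96), CKAP4 (0.96), ARF6 (0.96) and RABEP2 (0.95), over 9 libraries. Each of the 5 was highest in young cortex_270, CHST7 at 389 normalised counts with a lowest value of 52.4, and PGF at 676 with a lowest value of 153. In EVs the 5 nearest of 15165 genes were CCDC102A (r = 0.99), MAFA (0.99), EPHA7 (0.98), YAF2 (0.97) and FSTL3 (0.97), over 12 libraries. All but EPHA7 were highest in old EV_519, MAFA at 480.3 normalised counts with a lowest value of 54.2. These are descriptions, and no gene is in the first 5 of both tissues.

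EV libraries held 33.7 to 39.9 M reads in CCD, 29.0 to 32.7 M in old and 27.5 to 45.0 M in young dogs, of which 15.8% to 25.1% fell on genes. EV and cortex values were normalised in separate tables, so their levels are not compared. The EV membrane gene CD9 had 53.9 to 99.2, CD63 27.4 to 144 and CD81 53.8 to 580.4 normalised counts. Genes that mark brain cells were read in all EV libraries too, GFAP at 134 to 311 and SNAP25 at 26.9 to 100.1 normalised counts. So were the markers of every other cell type listed and found in the table, and the source of these reads was not tested.

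All 10 genes were read in every EV library. In EVs 31728 of the 34981 genes passed the filter on low values, so being read does not set the 10 apart. JUN had 123, 128, 184 and 146 normalised counts in CCD EV_163, EV_354, EV_358 and EV_523, 162, 117, 178 and 436 in old EV_250, EV_253, EV_264 and EV_519, and 110.1, 189, 256 and 243 in young EV_270, EV_353, EV_377 and EV_502. JUNB had 132, 127, 149.8 and 284 in CCD, 118, 77.9, 229.5 and 354.2 in old and 95.1, 132, 216 and 285 in young EVs, in the same order of libraries. Old EV_519 was the highest library for both. ATF3 had 194, 169.7, 160.5 and 139.6 in CCD, 204, 189, 184 and 116 in old and 193, 185, 181 and 179 in young EVs. For ATF3 old EV_519 was the lowest library. The 4 young libraries lay within 1.07-fold of each other, on 144 to 231 reads each, a closeness not to be read as precision.

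In EVs the Krüppel-like genes had the same high and low libraries as each other. KLF2 had 146, 117, 296 and 267 normalised counts in CCD, 120.0, 88.1, 251 and 494 in old and 63.4, 194, 339 and 464 in young EVs. KLF4 had 956, 876, 1038 and 1235 in CCD, 685, 469, 1138 and 1565 in old and 434, 979, 1181 and 1701 in young EVs. Young EV_270 and old EV_253 were the lowest libraries for both genes, with old EV_519 and young EV_502 the highest. DUSP1 had 98.9, 86.7, 157 and 139.6 in CCD, 72.4, 63.2, 161 and 253.2 in old and 82.6, 163.2, 174 and 205 in young EVs. GADD45B had 137, 87.6, 126 and 151 in CCD, 160.0, 77.9, 192 and 307 in old and 89.2, 162, 214 and 135 in young EVs. The groups overlapped for DUSP1 and for GADD45B.

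The last 3 genes showed the same overlap. BTG2 had 175, 139, 152.5 and 129 normalised counts in CCD, 229, 121, 178 and 161 in old and 152, 172, 168 and 253.3 in young EVs. IER2 had 117, 62.0, 125 and 165 in CCD, 112, 82.4, 201 and 208 in old and 65.0, 84.8, 139 and 199.6 in young EVs. IER3 had 88.1, 71.2, 100.2 and 123 in CCD, 115, 62.1, 121 and 211 in old and 79.2, 132, 172 and 139 in young EVs. Of the 10 genes 7 were highest in old EV_519, which was the lowest library for ATF3, and 5 were lowest in old EV_253.

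The share of reads on genes differed between the EV libraries. Those with the smallest share, young EV_270 (15.8%) and old EV_253 (16.4%), were the lowest library for 8 of the 10 genes between them. The share was 25.1% in CCD EV_523, 24.3% in young EV_502, 23.9% in young EV_377 and 23.7% in old EV_519, and 6, 8, 9 and 8 of the 10 genes lay above their median there. The order was not that of the shares throughout: old EV_264, at 20.3%, was above the median for all 10 genes, more than any other library, and ATF3 was lowest in old EV_519. The spread between the highest and the lowest library was 1.76-fold to 7.79-fold, with a median of 3.92-fold. After scaling to the reads on genes alone it was 2.24-fold to 5.21-fold, with a median of 2.85-fold. Young EV_270 and old EV_253 also had the highest sums of the 11 leukocyte markers found in the table, 4939 and 2306 normalised counts, over sums of 702 to 803 in CCD, 889 to 2306 in old and 658 to 4939 in young EVs, and the part of these cells in the values was not tested. Pearson's r of the log2 levels over the 12 EV libraries was positive in 37 of 45 pairs, with a median of 0.75 and a highest value of 0.95 for KLF2 with KLF4. The 8 negative pairs all contained ATF3, the lowest being JUNB with ATF3 (-0.68).

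**Figure D4:**
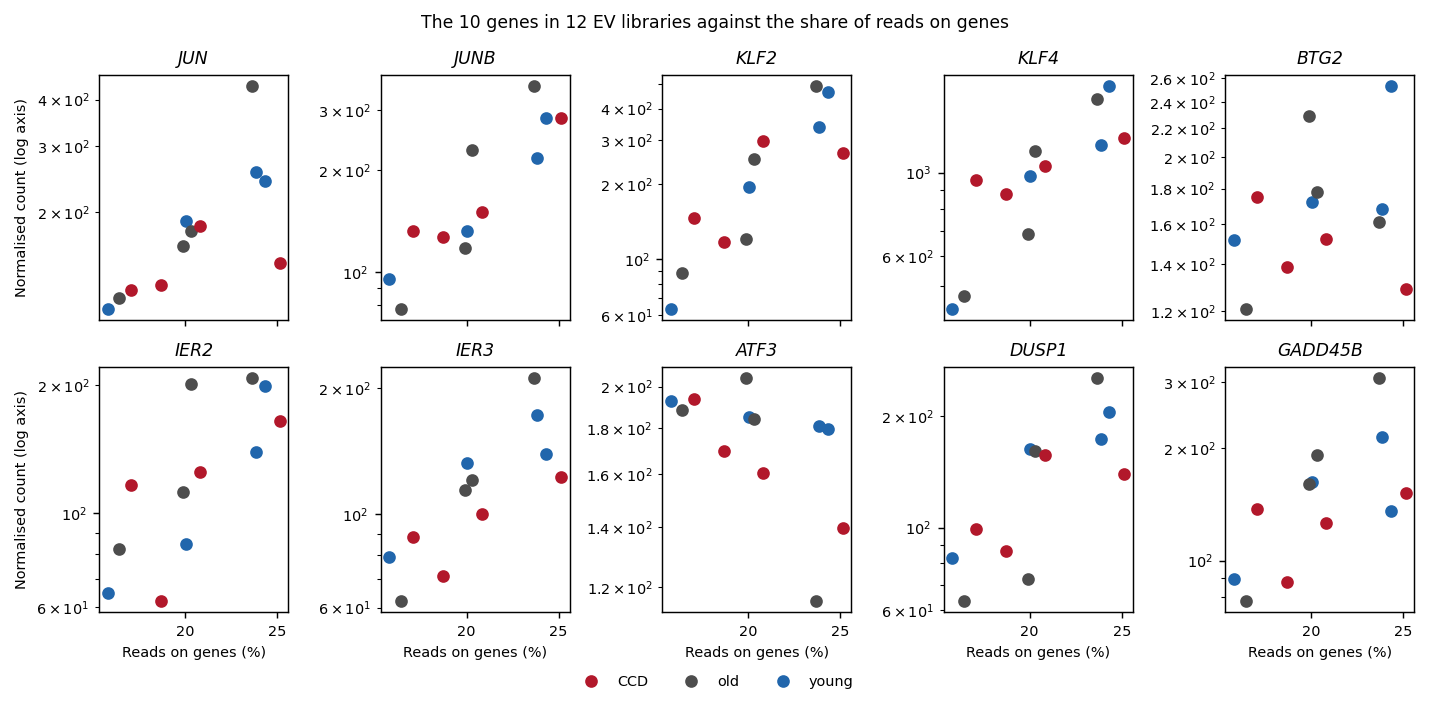
Normalised count of each of the 10 genes (vertical log axes) against the percentage of reads that fell on genes (horizontal axes) in the 12 EV libraries, coloured by group. KLF2 lies at 63.4 and 88.1 in the libraries with the smallest shares and at 494 in old EV_519, whereas ATF3 is lowest, at 116, in old EV_519.

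No group of EV libraries stood apart for any of the 10 genes. In CCD against old EVs 7 genes had a negative log2 fold change, with a median of -0.11 against -0.27 over all 31728 genes tested. In old against young EVs 7 were negative (median -0.12, against 0.09 over all genes), and in CCD against young EVs 9 were negative (median -0.19, against -0.17). KLF4 averaged 1026 ± 154 normalised counts in CCD, 964 ± 488 in old and 1074 ± 524 in young EVs (SD, n = 4 each). JUN averaged 145 ± 27.4 in CCD, 223 ± 144 in old and 199 ± 66.4 in young EVs. Limma called 0 of the 10 genes in each comparison, where 0% of all genes passed. It gave 0 an unadjusted p under 0.05, beside 5.98% of all genes in CCD against old, 1.24% in old against young and 2.85% in CCD against young EVs. The groups failed to overlap for 0 of the 10, beside 5.93%, 0.917% and 2.71% of all genes in the same order of comparisons. edgeR and DESeq2 also called 0 in each, with 0 at an unadjusted p under 0.05. Of all 31728 genes edgeR had 1032, 591 and 521 at that level and DESeq2 1227, 775 and 632, in the same order of comparisons. The median coefficient of variation over the genes was 22.2% in CCD, 51.0% in old and 34.1% in young EVs. Of the 106 genes in the pathway lists limma called 0 in EVs, with 9 lower in CCD against old (8.49%, beside 5.34% of all genes), 1 in old against young (0.943%, beside 0.489%) and 4 in CCD against young EVs (3.77%, beside 2.71%), and 0 higher, at an unadjusted p under 0.05. edgeR and DESeq2 called 0 as well, with at most 2 genes in a direction at that level.

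**Figure D5:**
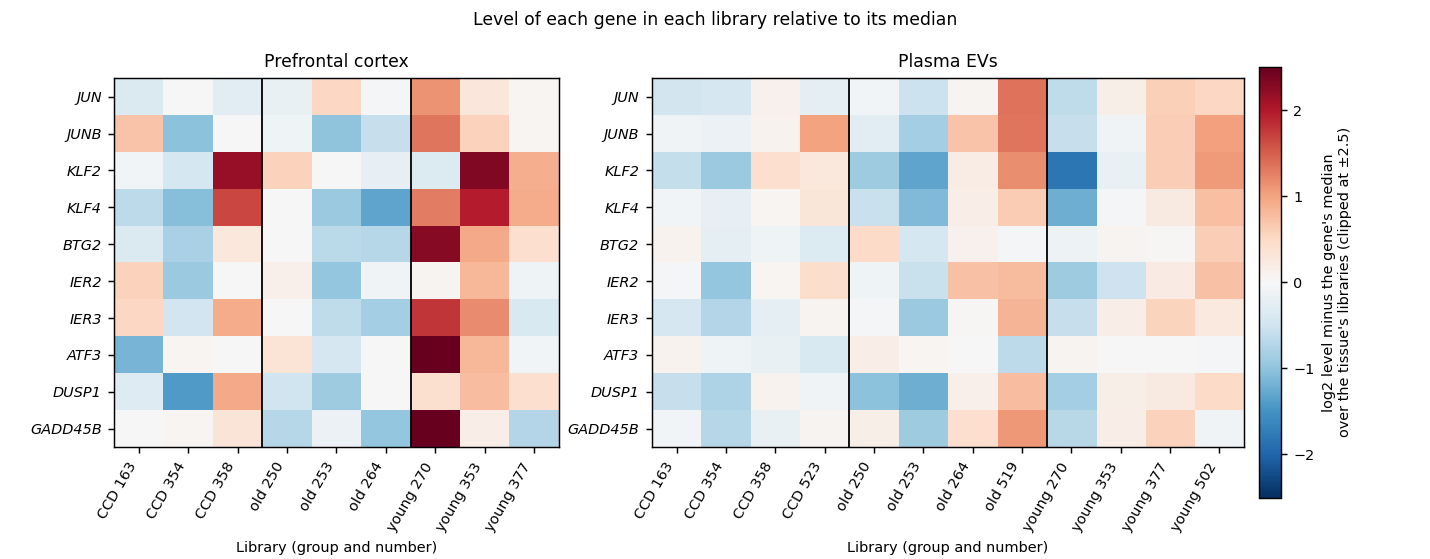
Colours give the log2 level of each gene (rows) in each library (columns, CCD, old and young from left to right) minus the median of that gene over the libraries of the tissue, clipped at 2.5 in either direction. In cortex young cortex_353 lies above the median for 10 genes, young cortex_270 for 9, and young cortex_377 and CCD cortex_358 for 6 each. In EVs old EV_519 is red for 7 genes as their highest library.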

How the data were processed

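RNA sequencing covered 9 prefrontal cortex and 12 plasma EV libraries. Per the labels' protocols, polyadenylated RNA was used for cortex, and total RNA depleted of ribosomal RNA for EVs. Reads were handled with STAR and DESeq2, per the submitters' processing notes. Tool versions, build, annotation, counting tool and use of strand were not given in the sources used here. Per gene and repeat family the authors deposited a signal called normalised counts, scaled so that every library of a tissue has the same total. Dividing by the value of 1 read gave whole reads for 100% of values (tolerance 0.01); in young cortex_353 that value is near 1, so this says little there. Counting error is not small for the lowest values, which rest on 30 reads in cortex and 55 in EVs. The spread between libraries also limits the precision.

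Genes with a mean of at least 10 were tested (19010 in cortex, 31728 in EVs) as log2(normalised count + 1), with limma 3.58.1 in R 4.3.3, all 3 groups of the tissue in 1 linear model with a trend, and Benjamini-Hochberg adjustment over all tested genes (threshold 0.05). Fold changes are on that scale and understate those of low genes. Recovered reads were tested with edgeR 4.0.16 and DESeq2 1.42.0. The procedures were tested on simulated data. All 10 genes are named; from each pathway list the gene of smallest p in a comparison is named, and per tissue the 5 genes most like the 10 with a mean of at least 50. The genes and lists were chosen with earlier results of these data known. Alternatives were a pseudocount of 5, no filter, a mean of at least 50, quantile normalisation, the compared groups alone, each library left out, the libraries high in meningeal markers left out and, chosen after seeing the data, scaling to reads on genes.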

Additional observations from a re-analysis of the deposited data

How the results depend on the processing

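In limma, 0 of the 10 genes were called in every comparison under quantile normalisation, a pseudocount of 5, a mean of at least 50, no filter, scaling to reads on genes (chosen after seeing the data), the compared groups alone and each library left out, and in edgeR. DESeq2 called 1 in old against young cortex. Leaving out the libraries high in meningeal markers called 0 of the 10 in CCD against old cortex, beside 15.4% of all genes. Calls against young cortex are not given for that fit, where young cortex_270 is the single young library. In that fit 6 genes were negative in CCD against old cortex, with KLF2 at -0.37, KLF4 at -0.11, BTG2 at -0.13 and DUSP1 at -0.41, and KLF2 was 0.46 in old against young and 0.090 in CCD against young cortex. With 1 library left out, CCD against old cortex gave -0.37 to 0.93 for KLF2, -0.11 to 1.24 for KLF4, -0.13 to 0.41 for BTG2, -0.15 to 0.60 for IER2, -0.56 to 0.041 for ATF3 and -0.41 to 0.77 for DUSP1 and 0.049 to 0.92 for JUNB, and 2 to 6 negative genes. Old against young cortex gave -2.79 to -0.40 for ATF3, -2.58 to -0.32 for GADD45B, -1.49 to -0.17 for KLF2, -0.79 to -0.24 for IER2 and -0.61 to -0.07 for JUN. CCD against young cortex gave -1.21 to 0.27 for KLF2, -0.72 to 0.031 for IER2 and -1.85 to 0.41 for GADD45B. In CCD against old EVs 4 genes, not 7, were negative under edgeR, DESeq2 and quantile normalisation. In CCD against young EVs 4, not 9, were negative under quantile normalisation. In old against young EVs 2 to 9 were negative with 1 library left out. Over 200 fits per EV comparison the sign changed in at least 1 fit for 6 genes in CCD against old, 8 in old against young and 6 in CCD against young, and 0 were called. The cause of these shifts was not tested. No paired analysis was possible because the numbers in the labels recur only between cortex and EVs, which were normalised separately, and no number is shared by groups of 1 tissue.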

Other observations

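Every cortex library shares its number with an EV library, although it is not stated that a number stands for a dog. The count of the 10 genes above their median over the libraries of a tissue can be set side by side for each number. It was 3 in cortex and 2 in EVs for CCD cortex_163 and EV_163, 2 and 0 for CCD cortex_354 and EV_354, and 6 and 6 for CCD cortex_358 and EV_358. It was 3 in cortex and 3 in EVs for old cortex_250 and EV_250, 1 and 1 for old cortex_253 and EV_253, and 0 and 10 for old cortex_264 and EV_264. It was 9 in cortex and 1 in EVs for young cortex_270 and EV_270, 10 and 6 for young cortex_353 and EV_353, and 6 and 9 for young cortex_377 and EV_377. Young cortex_270 had the highest ATF3 and GADD45B in cortex, 2249 and 3675 normalised counts, and young EV_270 had 193 and 89.2. Old cortex_264 had the lowest GADD45B in cortex, 136 normalised counts, and old EV_264 had 192.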
